A study of Mus musculus with 4 samples.

Results

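The inflammatory CC chemokines examined here are 9 secreted attractant proteins encoded by Ccl2, Ccl7, Ccl8, Ccl12, Ccl3, Ccl4, Ccl5, Ccl6 and Ccl9. They were taken as the array probe sets annotated with one of these symbols. All 9 genes were found, each with 1 probe set, among 19938 genes measured by probe sets of a single gene, and all 9 symbols matched a RefSeq gene by Entrez number. Macrophages were grown from the bone marrow of C57BL/6N mice in 10 ng/mL M-CSF, harvested on day 9, and their RNA was hybridised to single-colour Affymetrix arrays. M2 cells were polarised for 48 h with 20 ng/mL interleukin-4 (IL-4), and M1 cells for 48 h with 10 ng/mL interferon-γ. Each phenotype then received 10 ng/mL interleukin-1α (IL-1α), an inflammatory cytokine, or vehicle for 24 h. The 4 groups were therefore M2 with IL-1α, M2 with vehicle, M1 with IL-1α and M1 with vehicle, with 1 array per group and hence no standard deviation. All groups share the strain and the M-CSF culture, and no unpolarised macrophages are among them. The study compared how M1 and M2 cells respond to IL-1α.

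CC chemokines are small secreted proteins with adjacent cysteines near their amino terminus, and they steer leukocytes by binding G protein-coupled receptors. Ccl2, Ccl7 and Ccl12 are monocyte chemoattractants that act on the receptor Ccr2, and Ccl8 belongs to the same subgroup. Ccl3 and Ccl4 are the macrophage inflammatory proteins MIP-1α and MIP-1β, and Ccl3 and Ccl5 act on Ccr1. Ccl6 and Ccl9 are mouse chemokines that act on Ccr1. Macrophages are a major source of these proteins, and many of their genes are known targets of NF-κB or of interferon-induced factors, whereas Ccl6 is known as an IL-4-inducible gene of mouse macrophages.

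In RefSeq (assembly GRCm38.p6) all 9 genes lie on chromosome 11. Ccl2, Ccl7, Ccl12 and Ccl8 follow each other in that order, with the protein-coding gene Ccl11 between Ccl7 and Ccl12. Ccl5, Ccl9, Ccl6, Ccl3 and Ccl4 are consecutive protein-coding genes in a second cluster, where the annotated spans of Ccl3 and Ccl4 overlap. A RefSeq promoter window was matched for 5 of the 9 genes (Ccl8, Ccl12, Ccl3, Ccl6 and Ccl9). The 250 bases before the transcription start are shown for Ccl12 and Ccl8, neighbours that were both lower in M2, and for Ccl6, which was higher in M2. They lie at chr11:82101595-82101844 on the plus strand for Ccl12, at chr11:82114935-82115184 on the plus strand for Ccl8, and at chr11:83593088-83593337 on the minus strand for Ccl6. Capitals mark TATAAAA and, in Ccl12 and Ccl8, GGAAATCA, which is 1 of 3 runs of 8 bases, the longest that these windows share.
Ccl12: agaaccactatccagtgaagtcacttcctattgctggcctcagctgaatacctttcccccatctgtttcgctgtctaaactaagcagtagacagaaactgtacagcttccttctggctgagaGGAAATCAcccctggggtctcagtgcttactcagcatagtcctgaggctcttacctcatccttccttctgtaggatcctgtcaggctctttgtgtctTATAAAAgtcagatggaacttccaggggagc
Ccl8: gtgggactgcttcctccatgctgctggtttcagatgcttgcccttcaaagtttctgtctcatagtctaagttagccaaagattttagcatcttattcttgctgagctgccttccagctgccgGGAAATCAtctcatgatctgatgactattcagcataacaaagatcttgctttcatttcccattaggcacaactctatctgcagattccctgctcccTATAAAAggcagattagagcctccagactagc
Ccl6: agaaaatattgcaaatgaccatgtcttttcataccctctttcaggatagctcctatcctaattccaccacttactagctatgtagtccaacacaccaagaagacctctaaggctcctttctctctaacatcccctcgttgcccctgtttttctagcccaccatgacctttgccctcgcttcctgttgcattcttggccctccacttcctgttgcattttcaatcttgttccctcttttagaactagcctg
Counted from -1 just before the start, GGAAATCA stood at -128 to -121 in both Ccl12 and Ccl8. TATAAAA stood at -31 to -25 in Ccl12 and at -32 to -26 in Ccl8. On both strands of the 32851 promoter windows of this length in the table, TATAAAA was found in 4.98% and GGAAATCA in 0.983%. Optimal global alignment gave 55.6% identity between the Ccl8 and Ccl12 windows, and 43.7% to 50.4% for the other pairs of the 5 windows. The longest run shared within those other pairs was 7 to 13 bases, with 13 for Ccl6 and Ccl9. A shared run of 8 bases thus does not set Ccl8 and Ccl12 apart. Motifs tied to interferon, IL-4 or IL-1 signalling were searched on both strands as well, with overlaps allowed. The STAT6 motif (TTC and GAA with 4 bases between) was found in 5.85% of all windows and the interferon response core (GAAA repeated after 2 bases) in 2.98%, and each matched in 0 of the 5 chemokine windows. The NF-κB consensus (7.25%) matched in 1, Ccl9, at -35 to -26, and the AP-1 motif TGANTCA (6.75%) also in 1, Ccl9, at -53 to -47. Ccl9 also held overlapping TATAAAA matches at -95 and -92, and another at -225. These matches describe letters in a short window only.

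The labelled cell types were checked against their markers. All values are RMA signals on the log2 scale, and a floor of 7.617, the median over every gene and array, was taken as the level below which a signal is not shown to be above background. Of 11 macrophage markers measured, 10 reached the floor on each M2 array (all but Aif1) and 11 on each M1 array. The 8 M2 markers, such as Arg1 and Mrc1, were all at least 2-fold higher in M2 with vehicle, and the 8 M1 markers, such as Nos2 and Ptgs2, all at least 2-fold lower. Whole arrays correlated at r = 0.9958 within the M2 pair and 0.9969 within the M1 pair, and at 0.9617 to 0.9658 across phenotypes. Of the 9 chemokines, 8 reached the floor on every array and Ccl12 on 3 of 4. Levels are compared between arrays for the same gene, not between genes, because probe sets differ in brightness.

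Ccl5, Ccl12 and Ccl8 were lower in M2 than in M1 macrophages, Ccl6 was higher, and the other 5 chemokines differed by less than 2-fold. The largest of the 9 differences was in Ccl5, which stood 52.8-fold lower in M2 with vehicle. A difference of at least 1 log2 unit (2-fold) with an array at the floor was called higher or lower. With vehicle, 3 of 9 chemokines were called lower and 1 higher, where 6.83% of 10489 genes were called lower and 7.03% higher. The median over the 9 genes was -0.44, against 0.01 over all genes. The values on every array are shown in the plot of levels. As these are bulk cultures, fewer cells that express a gene and less RNA per cell cannot be told apart.

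**Figure D1:**
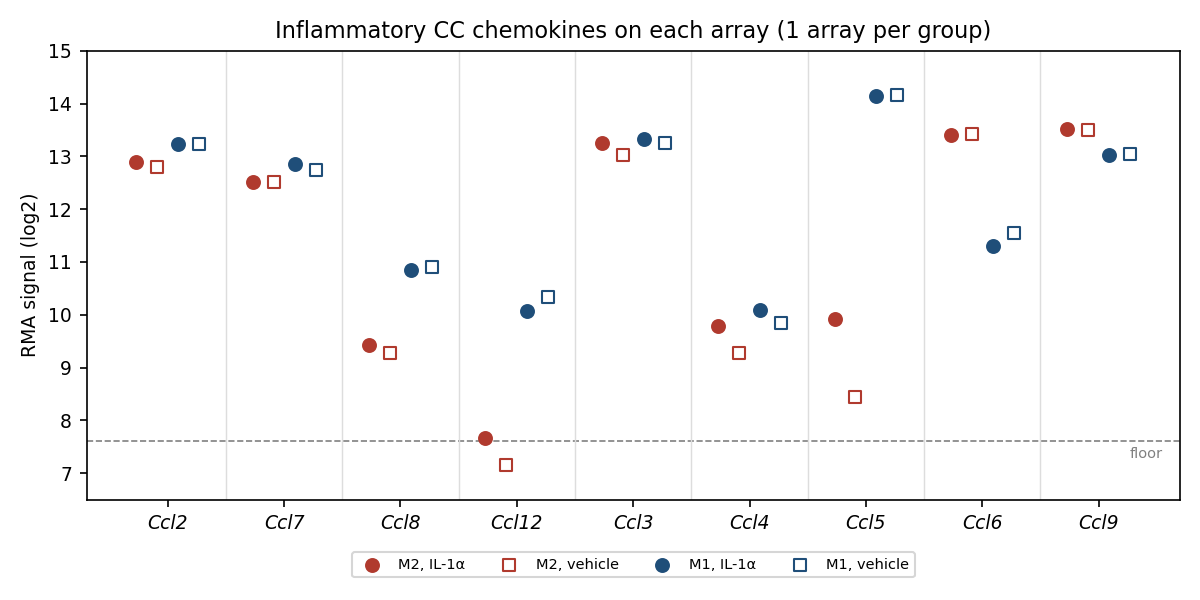
RMA signal (log2) of each chemokine on each of the 4 arrays: M2 in red, M1 in blue, IL-1α as filled circles and vehicle as open squares; the dashed line is the floor of 7.617. Ccl5, Ccl12 and Ccl8 are lower on both M2 arrays, Ccl6 is higher on both, and Ccl5 in M2 is higher with IL-1α (9.92) than with vehicle (8.45).

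Among the monocyte chemoattractants, Ccl2 (Entrez 20296), the principal Ccr2 ligand, read 12.90 with IL-1α and 12.80 with vehicle in M2, against 13.24 on both M1 arrays. Ccl7 (Entrez 20306), a second Ccr2 ligand, read 12.52 with IL-1α and 12.51 with vehicle in M2, against 12.85 and 12.74 in M1. Both genes were high on all arrays, and the M2 values lay slightly under the M1 values. The difference with vehicle was -0.44 for Ccl2 and -0.23 for Ccl7, sizes that 36.7% and 58.8% of all genes reached or passed.

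Ccl8 and Ccl12 departed from that pattern. Ccl12 (Entrez 20293), a mouse Ccr2 ligand, read 7.66 with IL-1α and 7.15 with vehicle in M2, against 10.07 and 10.33 in M1. With vehicle its difference was -3.18 (9.04-fold), the 104th lowest of 10489 genes. Its M2 vehicle value was under the floor and its M2 IL-1α value just above it, so the size is uncertain. Ccl8 (Entrez 20307), known in the mouse as a ligand of Ccr8, read 9.43 with IL-1α and 9.28 with vehicle in M2, against 10.84 and 10.90 in M1. This was a difference of -1.62 (3.07-fold) with vehicle, the 357th lowest. In both genes each M2 value lay under each M1 value, as it also did in Ccl2 and Ccl7. How many of all genes separate in this way was not counted. The 4 genes of this cluster thus spanned differences of -0.23 to -3.18 with vehicle.

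In the group of Ccl3, Ccl4 and Ccl5, Ccl5 (Entrez 20304, also called RANTES), an attractant of T cells and monocytes, read 9.92 with IL-1α and 8.45 with vehicle in M2, against 14.15 and 14.17 in M1. Its difference of -5.72 with vehicle was the 25th lowest of 10489 genes. The M2 signal was 1.89% of the M1 signal on the linear scale. Ccl3 (Entrez 20302, MIP-1α) read 13.25 with IL-1α and 13.03 with vehicle in M2, against 13.33 and 13.25 in M1. Ccl4 (Entrez 20303, MIP-1β) read 9.78 with IL-1α and 9.27 with vehicle in M2, against 10.09 and 9.84 in M1. Ccl3 (-0.21) and Ccl4 (-0.57) were thus close in the phenotypes with vehicle while Ccl5 was not. Because their annotated spans overlap, how far the Ccl3 and Ccl4 signals are independent was not tested.

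Ccl6 and Ccl9 were the only chemokines of the 9 with higher values in M2 on both pairs of arrays. Ccl6 (Entrez 20305, C10) read 13.40 with IL-1α and 13.43 with vehicle in M2, against 11.30 and 11.54 in M1. Its difference of 1.89 (3.70-fold) with vehicle was the 258th highest of 10489 genes. Ccl9 (Entrez 20308, MRP-2) read 13.52 with IL-1α and 13.50 with vehicle in M2, against 13.02 and 13.05 in M1, a difference of 0.45 with vehicle. Ccl6 lies between Ccl9 and Ccl3 on the chromosome, and neither neighbour reached 2-fold. On the 4 arrays, 4 of the 9 genes (Ccl2, Ccl7, Ccl3 and Ccl9) stayed within 2 log2 units of the top of every array, where a ceiling could hide differences. Whether one did was not tested.

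**Figure D2:**
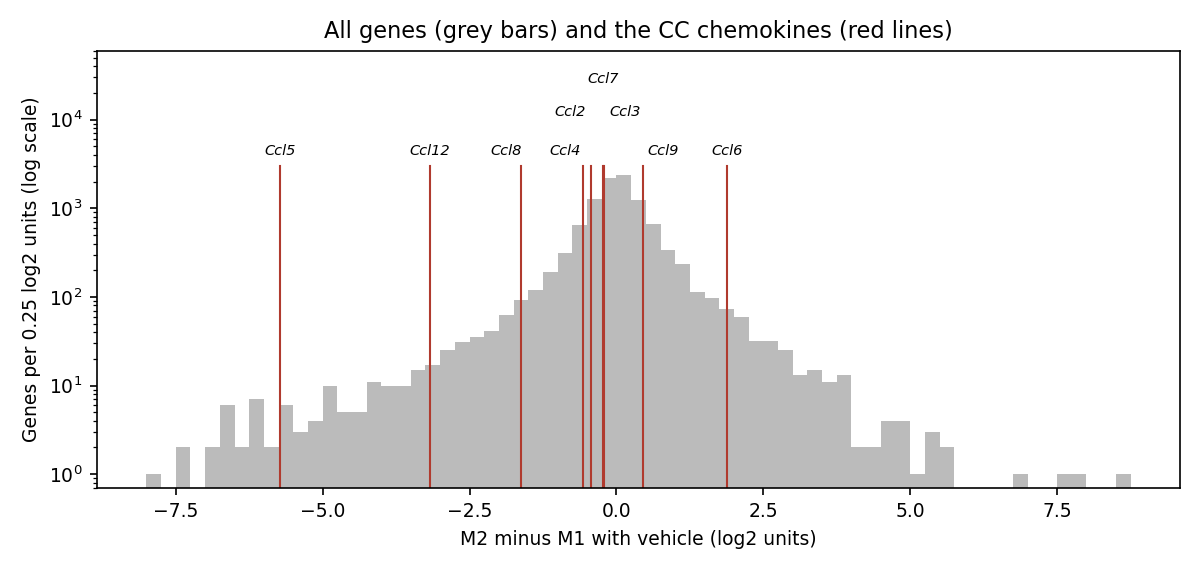
Number of genes (log scale) by M2 minus M1 difference with vehicle in bins of 0.25 log2 units, over 10489 genes, with each chemokine as a red line. Ccl5 (-5.72) lies in the far lower tail, Ccl12 and Ccl8 lie between it and the bulk, and Ccl6 (1.89) lies in the upper tail.

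With IL-1α on both sides the same 4 genes were called. Of the 9, 3 were lower in M2 (Ccl5, Ccl12 and Ccl8) and 1 was higher (Ccl6), where 6.06% of 10479 genes were lower and 8.15% higher. The difference was -4.23 (18.8-fold) for Ccl5, -2.42 (5.34-fold) for Ccl12, -1.41 (2.65-fold) for Ccl8 and 2.10 (4.30-fold) for Ccl6. The Ccl5 signal in M2 was then 5.33% of that in M1. All 9 genes kept the sign they had with vehicle, and in 6 of the 9 the difference was smaller in size with IL-1α.

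**Figure D3:**
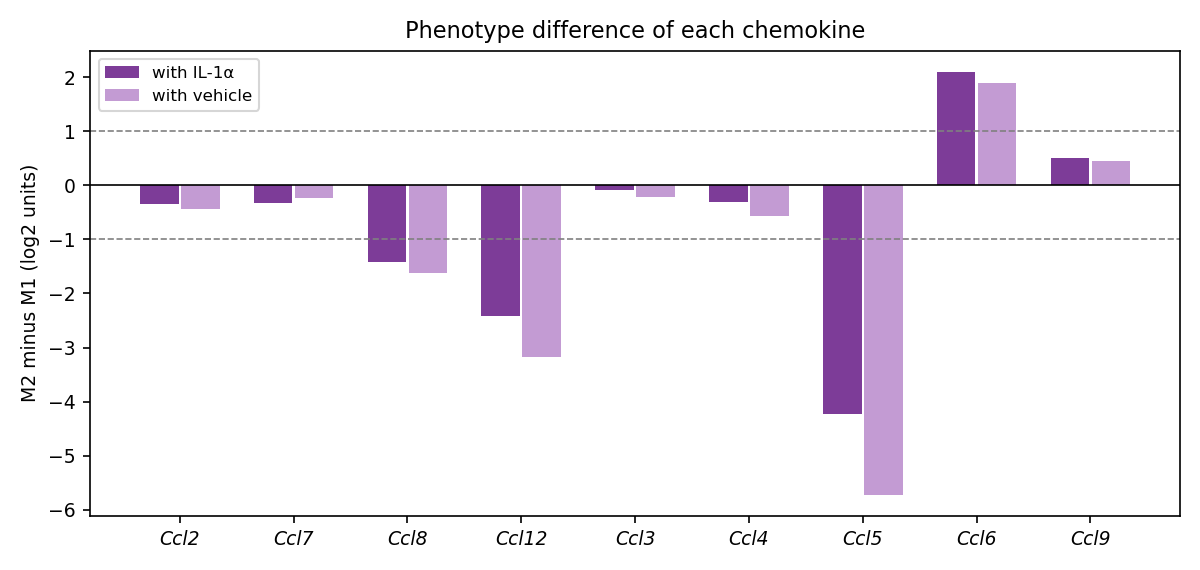
M2 minus M1 difference (log2 units) of each chemokine with IL-1α (dark bars) and with vehicle (light bars), 1 array per group; dashed lines mark 2-fold. The Ccl5 bars reach -4.23 and -5.72, those of Ccl12 -2.42 and -3.18, and those of Ccl6 2.10 and 1.89.

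The 4 arrays allow one kind of test, limma's additive model, which takes the phenotype difference shared by IL-1α and vehicle and sets it against the departure from additivity. With 1 residual degree of freedom per gene, its p-values measure no spread between cultures or animals. At a Benjamini-Hochberg adjusted p under 0.05, limma called 7 of the 9 genes lower in M2 and 2 higher, where 29.3% of 10625 genes were called lower and 33.2% higher. As 62.5% of all genes passed, the calls separate the chemokines little from other genes, and the sizes carry more. The effect was -4.98 ± 0.23 (SE) for Ccl5, with a limma adjusted p of 4.12e-09. It was -2.80 ± 0.14 for Ccl12 (limma adjusted p = 1.00e-08) and -1.51 ± 0.08 for Ccl8 (limma adjusted p = 1.04e-08). Ccl6 had 2.0 ± 0.06 (limma adjusted p = 7.24e-11) and Ccl9 0.47 ± 0.04 (limma adjusted p = 1.43e-06). Ccl2 had -0.39 ± 0.05, Ccl7 -0.28 ± 0.05, Ccl4 -0.44 ± 0.09 and Ccl3 -0.14 ± 0.05, with limma adjusted p from 1.52e-05 to 0.0185. Calls were lost for Ccl5 under robust eBayes (limma adjusted p = 0.102) and for Ccl3 without the variance trend (0.142). With phenotype as the only term, Ccl3 (limma adjusted p = 0.110) and Ccl4 (0.052) lost theirs.

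IL-1α was followed by a 2-fold difference in 1 chemokine in 1 phenotype, Ccl5 in M2. In M2, Ccl5 read 9.92 with IL-1α and 8.45 with vehicle, a difference of 1.48 (2.78-fold) and the 21st highest of 10284 genes. Thus 1 of 9 was called higher, where 0.35% of genes were, and 0 were called lower, where 0% were. Ccl4 (0.51, 1.43-fold) and Ccl12 (0.51, 1.42-fold) followed, at ranks 125 and 129 from the highest, with Ccl12 under the floor with vehicle. Ccl3 differed by 0.22, Ccl8 by 0.15 and Ccl2 by 0.10. Ccl7 (0.01), Ccl9 (0.02) and Ccl6 (-0.03) hardly differed between the M2 arrays. The median of the 9 was 0.15, against 0.05 over all genes. Of the 9, 8 were above 0, as were most genes: Ccl7, at 0.01, ranked only 6722nd from the highest of 10284.

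In M1 macrophages, 0 of the 9 genes were called in either direction, and 0% of 10012 genes were called higher or lower. Ccl4 read 10.09 with IL-1α and 9.84 with vehicle, a difference of 0.25 that ranked 122nd from the highest. Ccl12 (-0.25) and Ccl6 (-0.24) ranked 184th and 222nd from the lowest. The other 6 lay between -0.06 and 0.11, and Ccl5 was at -0.02. At 14.17 in M1 with vehicle, Ccl5 stood 0.24 under the highest probe set of that array, and whether a ceiling limited its response there was not tested. The median of the 9 was -0.02, against 0.00 over all genes.

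**Figure D4:**
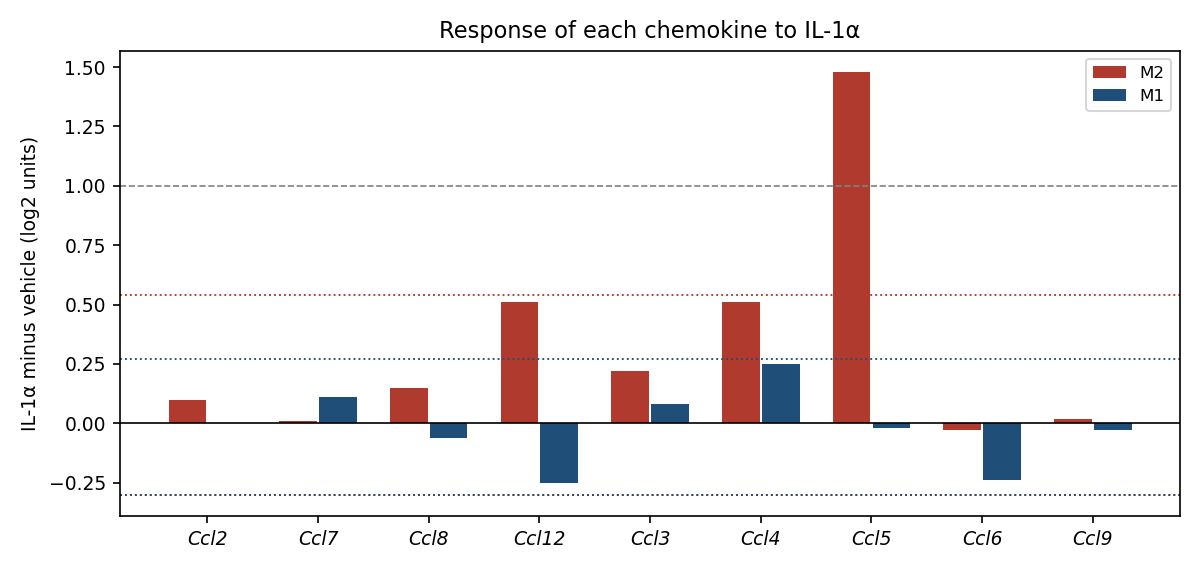
IL-1α minus vehicle (log2 units) of each chemokine in M2 (red bars) and M1 (blue bars), 1 array per group; the grey dashed line marks 2-fold and dotted lines the 1st and 99th percentiles of all genes, -0.30 and 0.54 in M2 and -0.30 and 0.27 in M1. The Ccl5 bar in M2 (1.48) passes the 2-fold line, and Ccl12 and Ccl4 in M2 (both 0.51) stand just under the 99th percentile.

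The study was designed around how far the responses differ, here taken as the M2 response minus the M1 response. It was at least 1 in Ccl5 (1.49, the 20th highest of 10625 genes), so 1 of 9 was called larger in M2, where 0.32% of genes were, and 0 smaller, where 0% were. For Ccl12 it was 0.76, the 59th highest, with a response of 0.51 in M2 and -0.25 in M1. For Ccl4 it was 0.26, with responses of 0.51 and 0.25 that had the same sign. The other 6 lay between -0.09 (Ccl7) and 0.22 (Ccl6). The 4 arrays leave no degree of freedom to test this contrast, so no difference between the responses was tested. For the IL-1α effect fitted as common to M2 and M1, limma called 0 of the 9 genes, and 0% of 10625 genes in either direction. At an unadjusted limma p under 0.05 there were 4 of the 9 (Ccl3, Ccl4, Ccl5 and Ccl6) and 646 of all genes. The fit averages over the phenotypes and does not show an effect in each: Ccl5 differed by 1.48 in M2 and by -0.02 in M1. Ccl4 had the lowest limma adjusted p of the 9, 0.473, with an effect of 0.38 ± 0.09 (SE).

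Genes whose 4 values ran most like those of a chemokine were found by the root mean square difference of values centred on each gene's mean, over 4 arrays and 10115 candidate genes. For Ccl5 they were the interferon-stimulated genes Ifit1 (0.24 log2 units) and Ifit3 (0.26) and the prostaglandin synthase Ptgs2 (0.29). For Ccl12 they were Gca (0.07), Prrg4 (0.10) and the IL-13 receptor chain Il13ra1 (0.11). For Ccl8 they were Zfp821 (0.01), the kinase Ptk2b (0.02) and Gngt2 (0.02). For Ccl6 they were the histone gene H2ac15 (0.02), the fatty acid synthase Fasn (0.03) and the lysosomal nuclease Dnase2a (0.04). The other 5 chemokines spanned less than 1 log2 unit and were not matched. Ifit1, Ifit3 and Ptgs2 were under the floor in M2 with vehicle, and Prrg4 and Gngt2 on both M2 arrays. The likeness of these genes to a chemokine is thus uncertain. With 1 array per group, such likeness is a description of these 4 arrays.

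Receptors for these chemokines were mostly under the floor. Of 14 CC chemokine receptor genes measured, 4 reached it on an array. Ccr1, the receptor of Ccl3, Ccl5, Ccl6 and Ccl9, read 10.53 with IL-1α and 10.37 with vehicle in M2, against 9.59 on both M1 arrays. Ccr3, which binds Ccl5 among others, read 9.86 with IL-1α and 9.61 with vehicle in M2, against 7.43 and 7.11 in M1, where both values were under the floor. Ccrl2, an atypical receptor that does not signal like the others, was lower in M2 by -3.25 with vehicle, and Ccr7, a lymph node homing receptor, by -1.76 with both M2 values under the floor. Limma called Ccr1 and Ccr3 higher and Ccrl2 and Ccr7 lower, with adjusted p from 3.15e-11 to 1.44e-06. Ccr2, the receptor of the monocyte chemoattractants, read 7.31 and 7.37 in M2 against 6.84 and 6.99 in M1, under the floor on all arrays. Among the 4 receptors, 0 differed by 2-fold with IL-1α in either phenotype.

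Other chemokines divided by phenotype, and their only calls with IL-1α were higher values in M2. Of 10 other CC chemokines, 5 reached the floor on a vehicle array, with 2 called higher in M2 (Ccl24 at 4.18 and Ccl17 at 1.71) and 0 lower. In M2 with IL-1α, 2 of 5 were called higher against vehicle, Ccl17 (1.89) and Ccl22 (1.68), both known IL-4-linked attractants of T cells. Of 17 CXC, CX3C and XC chemokines, 8 reached the floor on a vehicle array, with 5 called lower in M2 and 1 higher. The lower ones included the interferon-induced Cxcl9 (-7.44), Cxcl10 (-6.83) and Cxcl11 (-4.89). With IL-1α, 3 of 6 were called higher in M2, among them the neutrophil attractant Cxcl2 (3.18) and Cxcl10 (1.64). Over all genes, 7.03% were called higher and 6.83% lower in M2 with vehicle, and 0.35% higher with IL-1α in M2. On the vehicle arrays, Cxcl2, Cxcl9, Cxcl10 and Cxcl11 did not reach the floor in M2, nor did Ccl17 and Ccl24 in M1, which leaves the size of each difference uncertain. Ccl5 was above the floor on all arrays.

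**Figure D5:**
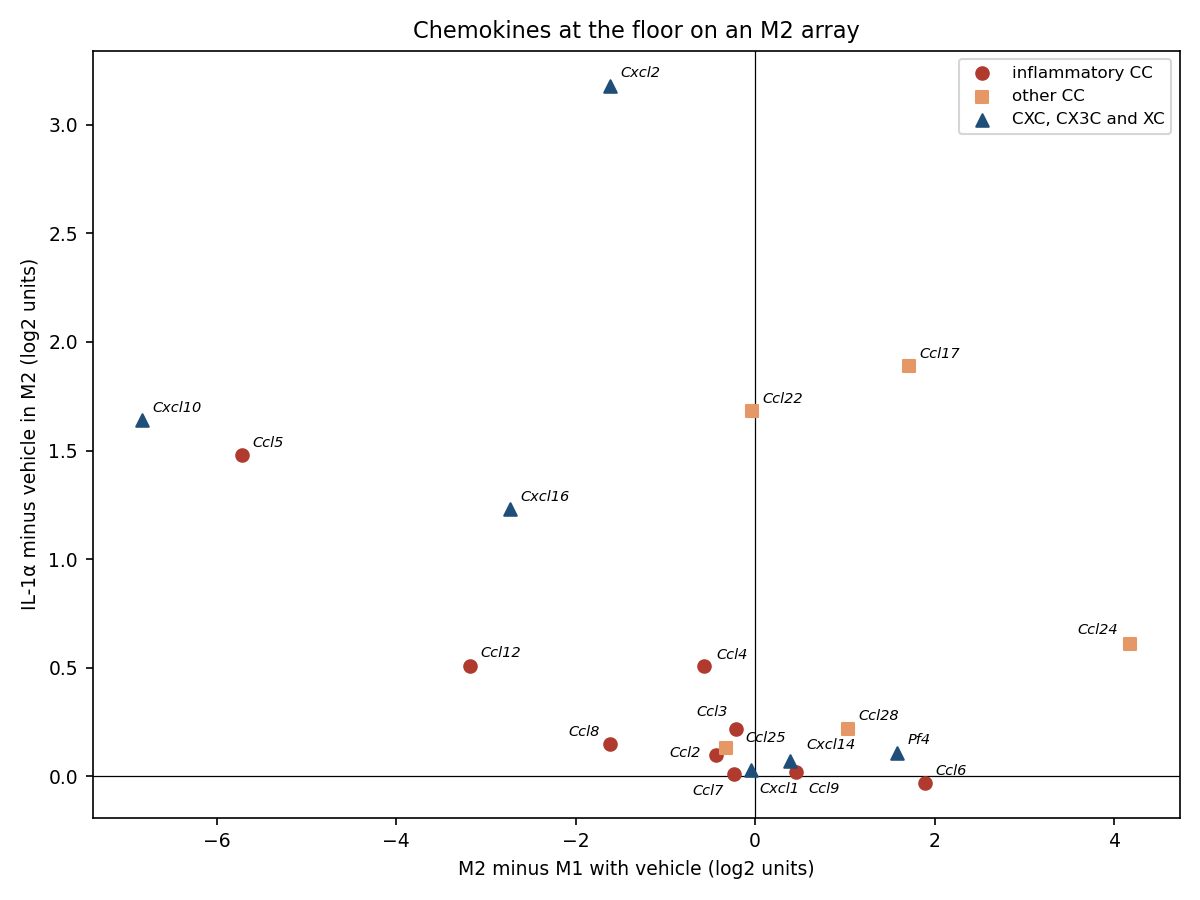
IL-1α minus vehicle in M2 (vertical, log2 units) against M2 minus M1 with vehicle (horizontal, log2 units) for the chemokines at the floor on an M2 array: 9 inflammatory CC (red circles), 5 other CC (orange squares) and 6 CXC, CX3C or XC (blue triangles). Ccl5 lies at -5.72 and 1.48, and Ccl6 at 1.89 and -0.03. The places of Cxcl2, Cxcl10, Ccl12 and Ccl28 are uncertain, since none of them reached the floor on the M2 vehicle array. The horizontal places of Ccl17, Ccl24 and Ccl28 are uncertain because these genes did not reach the floor in M1 with vehicle.

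Genes of NF-κB, interferon and IL-4 signalling were read from lists, and whether they act on these chemokines here was not tested. Of 19 NF-κB pathway and feedback genes at the floor, 10 were called lower in M2 with vehicle and 0 higher (median -1.01, all genes 0.01). In M2 with IL-1α, 3 of the 19 were called higher, the inhibitors Nfkbie (1.82) and Nfkbia (1.65) and the regulator Nfkbiz (1.27), with a list median of 0.44 against 0.05 over all genes. In M1, 0 of 19 were called and the median was 0.09. Of 15 interferon signalling factors, 7 were called lower in M2 with vehicle and 0 higher (median -0.61), led by Irf7 (-5.73), Stat2 (-2.71) and Irf1 (-1.93), and 0 were called with IL-1α in either phenotype. Of 10 IL-4 signalling genes, 5 were called higher in M2 with vehicle, among them Egr2 (5.30), Irf4 (4.48) and Myc (3.91), and 2 lower, among them Il13ra1 (-2.88). Over all genes, 7.03% were called higher and 6.83% lower in M2 with vehicle, and 0.35% higher with IL-1α in M2. The sizes for Nfkbiz, Egr2, Irf4 and Myc are uncertain, since Nfkbiz in M2 and the other genes in M1 did not reach the floor on the vehicle arrays. Limma called 17 of the 19 NF-κB genes and 9 of the 15 interferon factors lower in M2, and 5 of the 10 IL-4 genes higher and 5 lower, beside 29.3% of all genes lower and 33.2% higher.

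Markers of other cell types that make or respond to these chemokines were read beside them. T and NK cells are known Ccl5 producers, and 0 of 9 of their markers measured reached the floor on any array, including Cd3e and Nkg7. Their summed linear signal was 704 with IL-1α and 763 with vehicle in M2, against 696 and 703 in M1. Of 9 neutrophil markers, 5 reached the floor on each M2 array and 0 on each M1 array, and the rest reached it on no array. Summed linear signals over the 9 were 2210 and 2320 in M2 against 1040 and 998 in M1. Ngp read 9.93 and 9.92 in M2 against 7.51 and 7.41 in M1, while the defining marker Ly6g was under the floor on all arrays. Dendritic cell markers were divided: 2 of 7 reached the floor on each M2 array and 4 on each M1 array, with sums of 1600 and 1530 in M2 against 2290 and 2650 in M1. With vehicle, Clec9a (-4.35), Xcr1 (-1.96) and Ccr7 (-1.76) were lower in M2, as Ccl5 was, and read under the floor there. Batf3 (1.40) was called higher in M2 and Zbtb46 differed by 0.48. Flt3 was under the floor on all arrays. The part of neutrophil or dendritic cells in these differences was not tested. On any array, 1 of 4 B cell, 1 of 7 mast cell and basophil, 1 of 4 eosinophil and 6 of 9 stromal and endothelial markers reached the floor, and among these the only call with vehicle was Kdr, lower in M2.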

How the data were processed

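RNA from 4 cultures was hybridised to 1 array each. The authors deposited 1 log2 signal per probe set and array. Per the submitters' processing notes, RMA and Affymetrix Expression Console were used, with no version named. The log base is not stated, and the range of 3.09 to 14.47 fits log2. In general, RMA sets arrays to a common distribution and compresses differences among dim probe sets. Of 35556 probe sets, 21789 with 1 gene in GEO's platform annotation were averaged per gene. Of these, 21698 matched RefSeq by Entrez number.

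Differences of log2 values were called at 2-fold where an array compared reached the floor (7.617). limma 3.58.1 (R 4.3.3; lmFit, eBayes with a trend, 10.05 prior degrees of freedom) ran on 10625 genes at the floor on at least 1 array, with Benjamini-Hochberg adjustment, and was tested on simulated data. Labels do not say whether cultures came from separate animals. The number of arrays limits the precision. Alternatives were a 1.5-fold threshold, other floors, loess or quantile normalisation, the brightest probe set and other eBayes fits. Promoters were aligned with Biopython 1.88. The 9 chemokines and the 18 lists (178 of 186 symbols measured) were chosen with earlier results of these data known. Named list genes were up to 4 per list with the largest difference between phenotypes and up to 4 with the largest IL-1α response in M2, receptors at the floor and up to 4 markers per list by level. Aif1, Ly6g, Xcr1, Flt3, Ccr2 and Kdr were also named after their values were seen.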

Additional observations from a re-analysis of the deposited data

Results flagged for a closer look

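In 4 chemokines the IL-1α difference had opposite signs in the phenotypes, with 1 array per group, and none of these differences was tested. Ccl5 differed by 1.48 in M2 and -0.02 in M1, a gap of 1.49. Ccl12 differed by 0.51 in M2 and -0.25 in M1, a gap of 0.76. Ccl8 differed by 0.15 in M2 and -0.06 in M1, a gap of 0.21. Ccl9 differed by 0.02 in M2 and -0.03 in M1, a gap of 0.06. The signs of the M1 differences of Ccl5 (-0.02 to 0.05) and Ccl9 (-0.03 to 0.01) depended on the setting, and those of Ccl12 (-0.27 to -0.25) and Ccl8 (-0.07 to -0.06) did not.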

How the results depend on the processing

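Of the alternative values of the counts of called chemokines, 91 stayed within 1.5 times the value reported and 1 did not. Many had little or no room to move. Each chemokine has 1 probe set, so taking the brightest left its differences between arrays unchanged, as did another floor or fold threshold. Counts of 0 that stayed at 0 are also among the 91. At a 1.5-fold threshold, 2 genes (Ccl5 and Ccl12) in place of 1 had a larger response in M2 than in M1. No called difference between arrays changed sign. Over the alternatives, M2 minus M1 with vehicle ran from -5.80 to -5.68 for Ccl5 and from 1.78 to 1.89 for Ccl6, and the Ccl5 response in M2 from 1.44 to 1.48. Loess centring moved the bright genes most, giving -0.57 for Ccl2 and -0.35 for Ccl3 with vehicle. In limma, the common IL-1α effect on Ccl9, 0.00 as reported and just under 0 before rounding, turned to 0.01 under loess centring and to 0.03 under quantile normalisation. The cause was not tested. The limma phenotype effect of Ccl5 had adjusted p from 2.69e-11 to 0.102, the highest under robust eBayes. No paired analysis was possible because each group has 1 array. No array could be left out for the same reason. Signals near or under the floor, as for Ccl12 in M2, limit the sizes.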

Other observations

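Proteases known to cleave chemokines also divided by phenotype. Of 8 at the floor on a vehicle array, 3 were called higher in M2 (Mmp12 at 4.82, Mmp9 at 3.23 and Mmp8 at 1.40) and 1 lower (Mmp14 at -3.48), with a median of 0.72 against 0.01 over all genes. Over all genes, 7.03% were called higher and 6.83% lower. The sizes for Mmp8 and Mmp14 are uncertain, since on the vehicle arrays Mmp8 did not reach the floor in M1, nor Mmp14 in M2. Mmp12 read 13.67 with IL-1α and 13.70 with vehicle in M2, against 8.76 and 8.88 in M1. With IL-1α, 0 of 8 were called in M2 and 0 of 7 in M1. A list of 11 genes was drawn up for the decay of AU-rich mRNAs, a class that includes chemokine transcripts. With vehicle, 1 was called higher in M2 (Zfp36l1 at 1.73) and 1 lower (Tnfrsf1b at -1.04), which encodes a TNF receptor and not a decay factor. Counts of 1 in 11 lie near the shares over all genes, 7.03% higher and 6.83% lower. The endonuclease gene Zc3h12a read 10.29 with IL-1α and 9.19 with vehicle in M2, a difference of 1.10, and 10.13 and 9.79 in M1, a difference of 0.34. It was the 1 gene of the 11 called with IL-1α in M2, where 0.35% of all genes were called higher.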
